A study of Mus musculus with 6 samples.

Results

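The 10 genes described here encode fibronectin (Fn1), the tenascins C and X (Tnc and Tnxb), periostin (Postn), SPARC and its relative hevin (Sparc and Sparcl1), osteopontin (Spp1), matrix Gla protein (Mgp) and the fibulins 1 and 2 (Fbln1 and Fbln2). They were taken by symbol from a table of 55401 genes, and all 10 were found once and passed the filter on low counts, which left 13590 genes to test. The RNA came from cultured cancer-associated fibroblasts (CAFs), stromal cells of activated phenotype that surround carcinoma cells. They had been isolated from tumours raised by implanting mouse tumour organoids in the rectum of host mice. The 6 libraries form 2 groups, 3 of CAFs from Thbs2KO hosts and 3 of CAFs from wild-type (WT) hosts. Both groups received the organoid implants, and both sets of CAFs were cultured on plates coated with fibronectin in medium with serum. Thbs2 encodes thrombospondin-2, a matricellular glycoprotein. The labels do not give the allele, the strain, the age or sex of the hosts, the Thbs2 state of the organoids, or whether replicates are separate mice, so p-values rest on library-to-library spread alone, which may be technical.

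Fibronectin is secreted as a dimer that cells stretch into fibrils through the integrin whose alpha chain is Itga5, and other matrix proteins are laid down on these fibrils. Tenascin-C, periostin, SPARC and osteopontin are called matricellular: they sit in the matrix and change how cells attach to it and respond to growth factors, without being its main scaffold. In healthy adult connective tissue several of them are scarce, and in wounds and in the stroma of colorectal and other carcinomas fibroblasts make them in quantity.

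None of the 10 genes passed the test between Thbs2KO and WT CAFs (Benjamini-Hochberg adjusted p in edgeR from 0.187 to 0.934), against 1.09% of all tested genes, 0.552% higher and 0.537% lower. DESeq2 called 1 of the 10, Tnc, against 5.14% of all genes, and 3 of the 10 had an unadjusted edgeR p under 0.05, namely Tnc, Fbln1 and Mgp, against 13.3% of all genes. By direction, 2 of the 10 were higher (Fbln1 and Mgp), against 5.72% of all genes, and 1 was lower (Tnc), against 7.56%. These 3 were also the members whose groups did not overlap, Tnc with every Thbs2KO library below every WT library and Fbln1 and Mgp with every Thbs2KO library above. Over all tested genes 19.7% had groups that did not overlap, 9.37% with Thbs2KO above and 10.3% with Thbs2KO below. Of the log2 fold changes 5 were negative and 5 positive, with a median of 0.10, while 50.9% of all tested genes were negative. By mean CPM, Fn1, Postn, Sparc, Fbln2, Tnc and Spp1 ranked 1, 6, 8, 11, 19 and 36 among all tested genes. Together the 10 genes held 3.98% ± 0.841 of all counts in Thbs2KO CAFs and 4.04% ± 0.938 in WT CAFs (SD, n = 3 each).

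The libraries held from 19649066 to 20860335 expected counts in Thbs2KO and from 23061568 to 24417464 in WT. Thbs2 itself, the check of the labels, was 458.3 ± 69.5 CPM in Thbs2KO and 3399 ± 957 CPM in WT (SD, n = 3 each, edgeR adjusted p = 0.00521), and passed the test as lower in Thbs2KO. CPM are counts per unit of library size, scaled here with TMM factors, which correct library totals for differences in composition. The libraries carried the label's cell type: all 10 fibroblast markers were detected, summing to between 30116 and 41085 CPM in Thbs2KO and between 30662 and 33952 CPM in WT. The 9 epithelial markers summed to between 7.28 and 9.73 CPM in Thbs2KO and between 20.02 and 26.7 CPM in WT, and their part in the results was not tested. The 10 leukocyte markers summed to between 8.22 and 13.1 CPM in Thbs2KO and between 9.17 and 19.7 CPM in WT. Among them Ptprc was below 0.2 CPM in all 6 libraries and Cd3e was listed at 0 in all 6. The myeloid markers Cd14, Lyz2, Csf1r and Cd68 were detected in all 6. Cd14 was at 3.96 to 6.07 CPM in Thbs2KO and 4.22 to 5.35 CPM in WT. Lyz2 was at 0.44 to 5.52 CPM in Thbs2KO and 1.27 to 10.3 CPM in WT. In these bulk samples, fewer cells of a type and less RNA per cell cannot be told apart. Of all pairs of libraries Thbs2KO replicates 1 and 2 differed least, their counts giving 3.82 as chi-square per degree of freedom, against 15.8 to 123.4 for the other pairs. The value of 15.8 was that of WT replicates 2 and 3. The fit without both WT replicate 1 and Thbs2KO replicate 3, used below, thus keeps the most alike pair of each group. On the first principal component, with 46.0% of the variance, all Thbs2KO libraries were negative and all WT libraries positive. Thbs2KO replicate 3 was the lowest there, at -45.9. On the second, with 27.9%, Thbs2KO replicate 3 and WT replicate 1 were negative, at -16.3 and -44.9, and the rest positive, from 4.18 to 22.1.

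**Figure D1:**
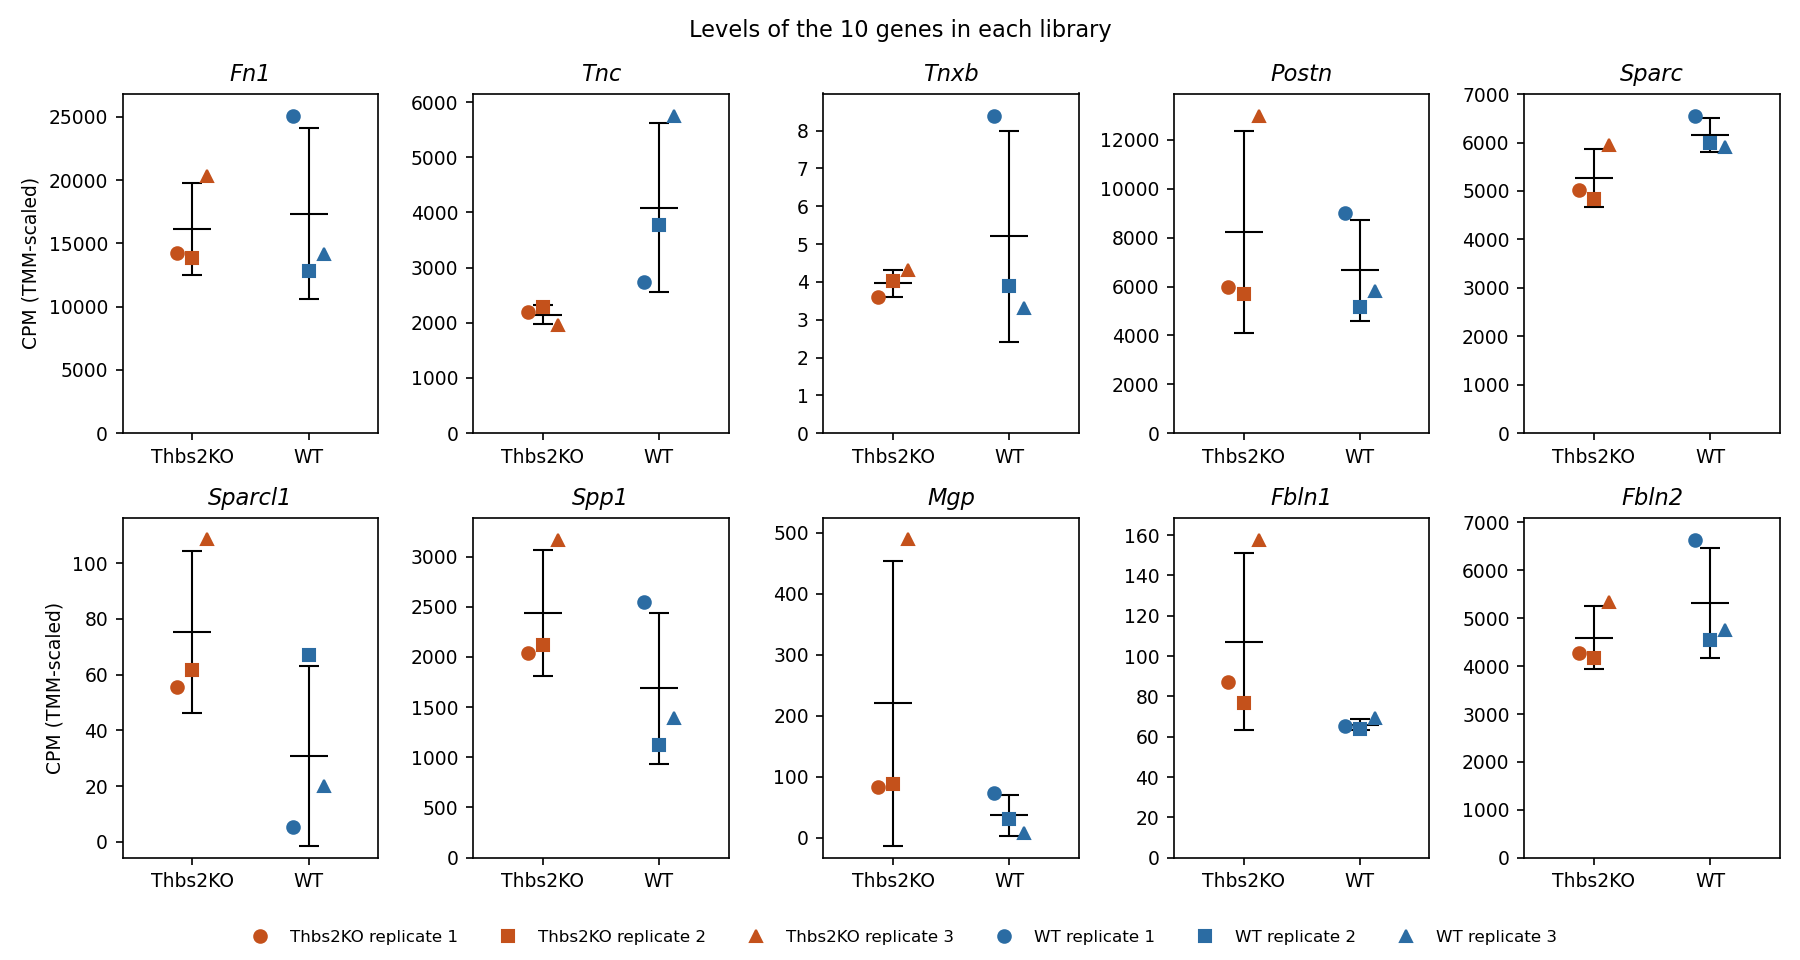
Levels of the 10 genes in TMM-scaled CPM (y axis, 1 scale per gene), with Thbs2KO libraries in orange and WT libraries in blue, a marker shape per replicate number, and the mean with its SD in black (n = 3). Tnc has all 3 Thbs2KO libraries below the WT libraries, Fbln1 and Mgp have them above, and the other 7 genes overlap, with Thbs2KO replicate 3 the highest Thbs2KO library in 9 of 10 genes.

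Fn1 (ENSMUSG00000026193.15, chromosome 1, 71585520 to 71653200, minus strand, mm10) encodes the fibril-forming glycoprotein itself and had the highest mean CPM of all tested genes. It measured 14263, 13876 and 20354 CPM in Thbs2KO replicates 1, 2 and 3, against 25080, 12831 and 14132 CPM in WT replicates 1, 2 and 3. The groups overlapped, and the highest and lowest of the 6 libraries were both WT. The log2 fold change was -0.10 with a 95% interval from -0.81 to 0.60 (edgeR, Benjamini-Hochberg adjusted p = 0.934), an interval that still holds changes of more than 1.5-fold in either direction. Without WT replicate 1 the log2 fold change was 0.26, and without both WT replicate 1 and Thbs2KO replicate 3 it was 0.062. The fibronectin of the plate coating is protein, not RNA. The antisense gene Apol7d, which shares 2.50% of the exon bases of Fn1, held at most 8 counts in any library. Fn1 made up 41.3% ± 0.914 of the counts of the 10 genes in Thbs2KO and 41.04% ± 5.69 in WT (SD, n = 3 each).

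Tnc (ENSMUSG00000028364.15, chromosome 4, 63959785 to 64047015, minus strand) encodes tenascin-C, a many-armed glycoprotein that weakens the hold of cells on fibronectin and is made at sites of repair and tumour growth. Its level was 2199.5, 2287 and 1954 CPM in Thbs2KO replicates 1, 2 and 3, against 2735, 3769 and 5752 CPM in WT replicates 1, 2 and 3. All 3 Thbs2KO libraries lay below the lowest WT library, which was WT replicate 1, and the Thbs2KO libraries were close together while the WT libraries spread widely. The mean was 2147 ± 173 CPM in Thbs2KO and 4085 ± 1533 CPM in WT (SD, n = 3 each), a ratio of 0.525. The log2 fold change was -0.93 (SE 0.262, 95% interval -1.56 to -0.30, edgeR unadjusted p = 0.0104, Benjamini-Hochberg adjusted p = 0.187), so Tnc did not pass over all genes. It passed in DESeq2 (adjusted p = 0.0116) and in edgeR without WT replicate 1 (log2 fold change -1.15, adjusted p = 0.0433, with 2.89% of all genes called), but not without both WT replicate 1 and Thbs2KO replicate 3 (log2 fold change -1.08, adjusted p = 0.108). Without WT replicate 3 the log2 fold change was -0.60 (adjusted p = 0.35), and over all alternatives the adjusted p ran from 0.0116 to 0.458.

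The contractile smooth muscle markers Myh11, Actg2, Lmod1 and Cnn1 were, like Tnc, highest in WT replicates 2 and 3, but Des and the pericyte markers Rgs5, Cspg4, Notch3, Kcnj8 and Abcc9 were not highest in both. The 10 markers of both cell types summed to 428.6, 567.98 and 432.9 CPM in Thbs2KO replicates 1, 2 and 3, against 406.9, 1415 and 1040 CPM in WT replicates 1, 2 and 3, none was at 0 in any library, and WT replicate 1 had the lowest sum. Of the 9 that were tested, 6 were negative on the log2 scale, against 50.9% of all tested genes. An unadjusted edgeR p under 0.05 was found for 4 of these 6, against 7.56% of all genes lower at that p. Rgs5, a pericyte marker, was below 1 CPM in all 6 libraries. The part of these cells or of this programme in the Tnc values was not tested.

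The 3 tested genes whose profiles over the 6 libraries were most like that of Tnc, among 10472 genes of at least 5 CPM, were Hs6st2, Tnk2 and Itga5. Their log2 CPM, centred on the mean of each gene, differed from those of Tnc by 0.105, 0.127 and 0.127 on average. Hs6st2 encodes a heparan sulfate sulfotransferase, Tnk2 a cytoplasmic tyrosine kinase and Itga5 the alpha chain of the fibronectin receptor. None of them passed the test (edgeR, Benjamini-Hochberg adjusted p = 0.117, 0.209 and 0.253).

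RefSeq promoter windows (GRCm38.p6, the assembly of mm10), cut here to the 250 bases before a start site, were found for 7 of the 10 genes, in 11 windows. They are shown for Tnc and Fbln1, whose groups lay apart in opposite directions, and for Postn, the member of highest mean CPM among the 7. Capitals mark matches to TATANA, which stands for the classic promoter box of that kind and was searched on the gene's own strand, and no other searched motif matched in these 3 windows. The Tnc window is chr4:64047016-64047265, minus strand, before the more upstream of its RefSeq starts, with a match at position -126. The window of its other start, not shown, has matches at -205 and -29. The Postn window is chr3:54360857-54361106, plus strand, with overlapping matches at -28 and -26 and another at -212. The Fbln1 window is chr15:85205699-85205948, plus strand, and has none.
Tnc: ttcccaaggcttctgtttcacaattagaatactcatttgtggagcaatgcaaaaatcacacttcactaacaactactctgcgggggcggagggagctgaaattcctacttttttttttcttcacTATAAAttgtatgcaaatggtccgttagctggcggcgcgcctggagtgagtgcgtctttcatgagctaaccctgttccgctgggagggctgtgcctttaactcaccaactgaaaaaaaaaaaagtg
Postn: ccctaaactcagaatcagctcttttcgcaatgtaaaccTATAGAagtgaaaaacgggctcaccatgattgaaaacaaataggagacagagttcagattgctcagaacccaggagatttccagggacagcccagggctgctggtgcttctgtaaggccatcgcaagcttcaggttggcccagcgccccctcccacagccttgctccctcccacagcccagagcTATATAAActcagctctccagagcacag
Fbln1: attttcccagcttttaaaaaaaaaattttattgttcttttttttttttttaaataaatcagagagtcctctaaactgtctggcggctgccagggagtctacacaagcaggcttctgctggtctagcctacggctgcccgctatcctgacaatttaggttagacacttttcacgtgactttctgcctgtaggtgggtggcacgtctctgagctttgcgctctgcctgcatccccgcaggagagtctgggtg

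TATANA occurred in windows of 3 of the 7 genes (Tnc, Postn and Spp1) and in 16.4% of all 32851 windows of this length. Here and below the counts of members are per gene, some with more than 1 window, while the shares are per window. They are therefore not directly comparable. The AP-1 string TGANTCA, searched on both strands, occurred in 1 of the 7, Tnxb, and in 6.75% of all windows. The cyclic AMP response string TGACGTCA, the TEAD string GGAATG and the CArG box, to which serum response factor binds, occurred in none of the 7 genes on either strand, and in 1.55%, 12.6% and 1.47% of all windows. None of these strings overlaps another in the windows shown, apart from the pair at -28 and -26 in Postn.

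Tnxb (ENSMUSG00000033327.18, chromosome 17, 34670535 to 34719815, plus strand) encodes tenascin-X, which binds collagen fibrils and whose loss causes an Ehlers-Danlos syndrome in humans. It was the scarcest of the 10, at 3.59, 4.01 and 4.30 CPM in Thbs2KO replicates 1, 2 and 3, against 8.39, 3.90 and 3.31 CPM in WT replicates 1, 2 and 3. These rest on 76 to 88 counts per Thbs2KO library and 79 to 195 counts per WT library. WT replicate 1 was high and the other 5 libraries were within 1 CPM of each other. Its log2 fold change was -0.39 with a 95% interval from -1.27 to 0.49 (edgeR, Benjamini-Hochberg adjusted p = 0.747), and 0.14 without WT replicate 1. Among the WT libraries replicate 1 was thus the highest for Tnxb and the lowest for Tnc.

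Postn (ENSMUSG00000027750.16, chromosome 3, 54361109 to 54391037, plus strand) encodes periostin, a fasciclin-domain protein that links collagen, fibronectin and tenascin-C and binds integrins. It measured 5988, 5674 and 12989 CPM in Thbs2KO replicates 1, 2 and 3, against 9012, 5164 and 5805 CPM in WT replicates 1, 2 and 3. The groups overlapped, with Thbs2KO replicate 3 and WT replicate 1 each well above the other libraries of their group. The mean was 8217 ± 4136 CPM in Thbs2KO and 6660 ± 2062 CPM in WT (SD, n = 3 each), and the log2 fold change was 0.30 with a 95% interval from -0.60 to 1.20 (edgeR, Benjamini-Hochberg adjusted p = 0.82). It was -0.19 without Thbs2KO replicate 3 and 0.089 without both of these libraries, while without WT replicate 1 alone it was 0.58.

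**Figure D2:**
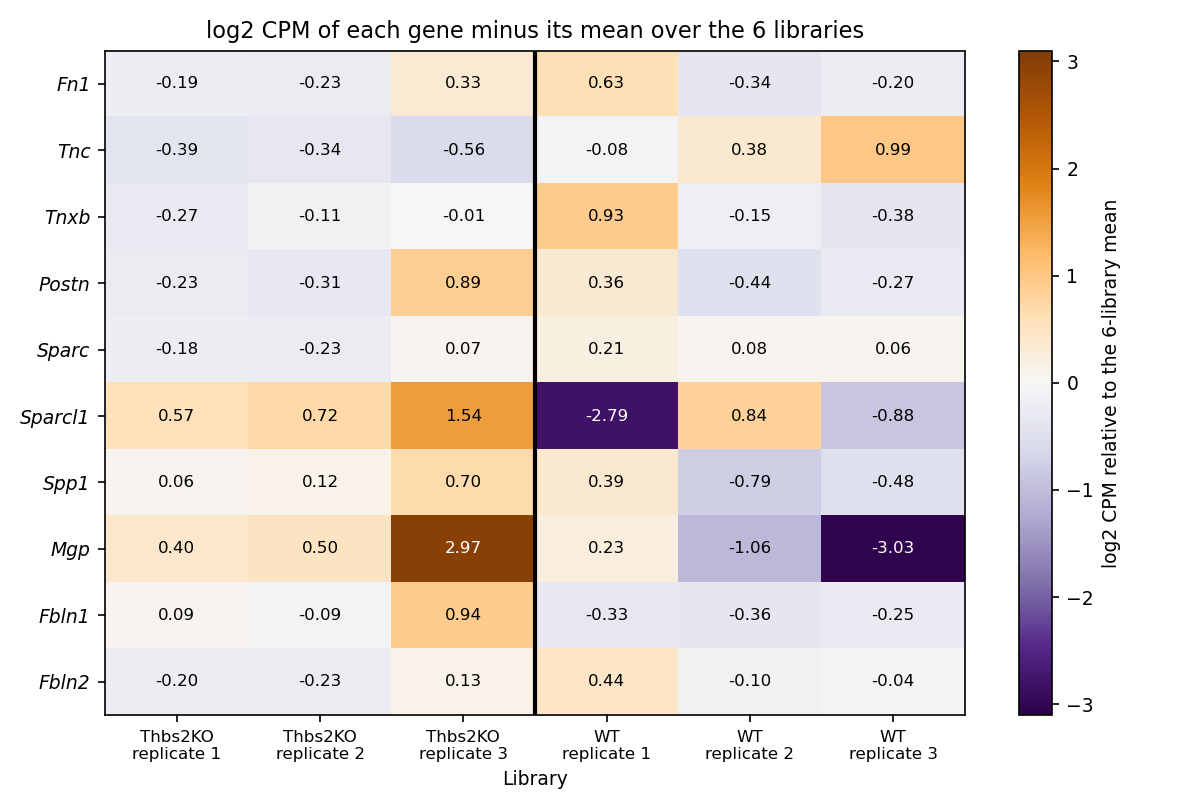
Profiles of the 10 genes (rows) over the 6 libraries (columns, Thbs2KO left of the line and WT right of it), as log2 CPM with a prior count of 2 minus the mean of each gene. Thbs2KO replicate 3 or WT replicate 1 carries the highest value of every gene but Tnc. Tnc runs from -0.56 in Thbs2KO replicate 3 to 0.99 in WT replicate 3, and Mgp spans -3.03 to 2.97.

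Sparc (ENSMUSG00000018593.13, chromosome 11, 55394500 to 55423183, minus strand) encodes a collagen-binding and calcium-binding glycoprotein that assists collagen fibril assembly. It was the steadiest of the 10, at 5015, 4845 and 5948 CPM in Thbs2KO replicates 1, 2 and 3, against 6554, 5995 and 5902 CPM in WT replicates 1, 2 and 3. The groups overlapped only through Thbs2KO replicate 3, which lay above WT replicate 3. On the log2 scale the difference was -0.22 with a 95% interval from -0.50 to 0.055 (edgeR, Benjamini-Hochberg adjusted p = 0.488), an interval that excludes a change of 1.5-fold. Without both WT replicate 1 and Thbs2KO replicate 3 it was -0.27 and passed the test (adjusted p = 0.0152). That fit keeps the most alike pair of each group and called 11.2% of all genes.

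Sparcl1 (ENSMUSG00000029309.7, chromosome 5, 104079111 to 104113733, minus strand) encodes hevin, a relative of SPARC that is made by vessel-associated and other stromal cells. It measured 55.6, 61.8 and 108.6 CPM in Thbs2KO replicates 1, 2 and 3, against 5.34, 66.99 and 20.2 CPM in WT replicates 1, 2 and 3. The WT libraries differed by more than 10-fold among themselves and WT replicate 2 lay within the Thbs2KO range. The log2 fold change was 1.29 with a 95% interval from -0.62 to 3.20 (edgeR, Benjamini-Hochberg adjusted p = 0.582), 2.56 without WT replicate 2 and 0.79 without WT replicate 1. Without both WT replicate 1 and Thbs2KO replicate 3 it was 0.43. The 8 endothelial markers summed to 50.5, 33.2 and 32.2 CPM in Thbs2KO replicates 1, 2 and 3, against 11.8, 32.03 and 17.4 CPM in WT replicates 1, 2 and 3. Kdr, which encodes a VEGF receptor, was at 45.0, 28.04 and 21.5 CPM in Thbs2KO against 2.497, 26.3 and 10.6 CPM in WT, and was the larger part of the sum in every library but WT replicate 1, where Tek, which encodes an angiopoietin receptor, was at 8.87 CPM. Cdh5 and Pecam1 were below 0.6 CPM in all 6 libraries and Cldn5 was listed at 0. Their part in the Sparcl1 values was not tested.

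Spp1 (ENSMUSG00000029304.14, chromosome 5, 104435118 to 104441050, plus strand) encodes osteopontin, a phosphorylated glycoprotein that binds integrins and CD44 and that macrophages also make. It measured 2034, 2118 and 3162 CPM in Thbs2KO replicates 1, 2 and 3, against 2542, 1126 and 1396 CPM in WT replicates 1, 2 and 3. All 3 Thbs2KO libraries lay above WT replicates 2 and 3, and WT replicate 1 lay between Thbs2KO replicates 2 and 3. Over the 6 libraries the log2 fold change was 0.53 with a 95% interval from -0.26 to 1.32 (edgeR, Benjamini-Hochberg adjusted p = 0.586). Without WT replicate 1 it was 0.95 (adjusted p = 0.102), without Thbs2KO replicate 3 it was 0.30 (adjusted p = 0.779), and without both WT replicate 1 and Thbs2KO replicate 3 it was 0.72 and passed the test (adjusted p = 0.0194, 11.2% of all genes called). The part of leukocytes, whose markers are given above, in the Spp1 values was not tested. A gene model on the same strand, Gm42793, shares 18.75% of the exon bases of Spp1, and it held from 39.02 to 95.08 counts per Thbs2KO library and from 35.06 to 111.54 per WT library.

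Spp1 and Sparcl1 stand at the 2 ends of a run of 6 protein-coding genes on chromosome 5 that spans 361.9 kb and holds the mineral-binding phosphoproteins Dspp, Dmp1, Ibsp and Mepe between them. Dspp and Mepe were listed at 0 in all 6 libraries, where a count of 0 allows up to 0.147 CPM in Thbs2KO and up to 0.131 CPM in WT, and Ibsp was at 0 in all but WT replicate 1. Dmp1, which encodes a dentin and bone matrix protein, was at 4.54, 3.67 and 4.06 CPM in Thbs2KO replicates 1, 2 and 3, against 0.474, 2.02 and 0.168 CPM in WT replicates 1, 2 and 3 (edgeR, Benjamini-Hochberg adjusted p = 0.26). The Dmp1 groups did not overlap, as for 9.37% of all tested genes with Thbs2KO above. Dmp1 passed without WT replicate 2, its highest WT library (log2 fold change 3.67, edgeR adjusted p = 0.0403, 79 of 13738 genes called). It passed in no other alternative, DESeq2 included.

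Mgp (ENSMUSG00000030218.2, chromosome 6, 136872435 to 136875823, minus strand) encodes matrix Gla protein, a small vitamin K-dependent protein that prevents calcification of vessels and cartilage. It measured 82.5, 88.7 and 490.2 CPM in Thbs2KO replicates 1, 2 and 3, against 73.6, 30.01 and 7.59 CPM in WT replicates 1, 2 and 3. The groups did not overlap, but Thbs2KO replicate 1 and WT replicate 1 were nearly level, Thbs2KO replicate 3 was far above every other library and WT replicate 3 far below. The mean was 220.5 ± 233.6 CPM in Thbs2KO and 37.1 ± 33.6 CPM in WT (SD, n = 3 each). As a log2 fold change this was 2.57 (SE 1.01, 95% interval 0.16 to 4.99, edgeR unadjusted p = 0.04, Benjamini-Hochberg adjusted p = 0.342). It was 1.21 without Thbs2KO replicate 3, while leaving out WT replicate 3 gave 2.09 and leaving out WT replicate 1 gave 3.55 (adjusted p = 0.59, 0.652 and 0.176). The genes most like Mgp over the 6 libraries were Slc40a1, which encodes the iron exporter ferroportin, the protease gene Adamts15 and Edil3, which encodes an integrin-binding matrix protein. Their centred log2 CPM differed from those of Mgp by 0.374, 0.535 and 0.578 on average. All 3 were, like Mgp, highest in Thbs2KO replicate 3, which picking genes by likeness to the Mgp profile favours.

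Fbln1 (ENSMUSG00000006369.14, chromosome 15, 85205949 to 85286535, plus strand) encodes fibulin-1, which binds fibronectin, nidogen and basement membranes. It measured 87.3, 76.8 and 157.4 CPM in Thbs2KO replicates 1, 2 and 3, against 65.1, 63.9 and 69.2 CPM in WT replicates 1, 2 and 3. The WT libraries were within 6 CPM of each other and every Thbs2KO library lay above them, with Thbs2KO replicate 3 the highest. For Fbln1 the log2 fold change was 0.70 (SE 0.264, 95% interval 0.068 to 1.33, edgeR unadjusted p = 0.0347, Benjamini-Hochberg adjusted p = 0.326) and 0.31 without Thbs2KO replicate 3 (adjusted p = 0.201). The genes most like it were Kdm7a, which encodes a histone demethylase, the mesenchymal cadherin gene Cdh11 and the collagen VI chain gene Col6a1, at average differences of 0.07, 0.0724 and 0.0869 in centred log2 CPM.

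Fbln2 (ENSMUSG00000064080.12, chromosome 6, 91212455 to 91272540, plus strand) encodes fibulin-2, a partner of fibronectin, versican and elastic fibres. It measured 4270, 4173 and 5346 CPM in Thbs2KO replicates 1, 2 and 3, against 6629, 4552 and 4760 CPM in WT replicates 1, 2 and 3, and the groups overlapped through Thbs2KO replicate 3. For Fbln2 the log2 fold change was -0.21 with a 95% interval from -0.64 to 0.23 (edgeR, Benjamini-Hochberg adjusted p = 0.723). It was -0.018 without WT replicate 1, -0.33 without Thbs2KO replicate 3 and -0.14 without both.

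**Figure D3:**
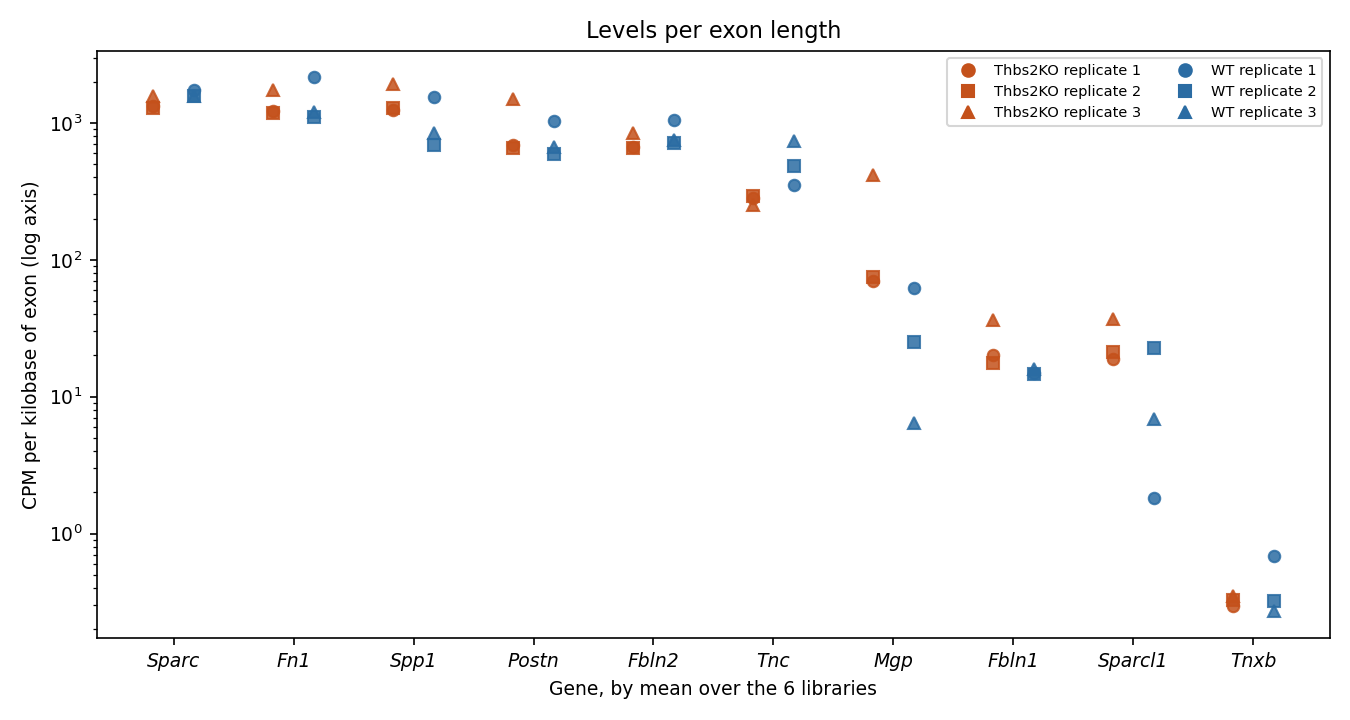
Levels of the 10 genes per kilobase of annotated exon (log y axis), Thbs2KO libraries in orange left of WT libraries in blue, a marker shape per replicate number. By mean over the 6 libraries, Sparc, Fn1, Spp1, Postn and Fbln2 stand close together at the top, Tnc and Mgp lie lower and Fbln1 and Sparcl1 lower again. In WT the range of Tnc overlaps those of Postn and Fbln2, and that of Mgp overlaps those of Fbln1 and Sparcl1. Tnxb is the lowest in all 6 libraries.

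Levels of different genes were compared per kilobase of the exon bases annotated for each gene. In Thbs2KO the order was Spp1, Sparc and Fn1 at 1479 ± 381, 1391 ± 157 and 1383 ± 311 CPM per kilobase, then Postn at 944 ± 475, Fbln2 at 722 ± 102, Tnc at 276.2 ± 22.2 and Mgp at 185.7 ± 196.8. In WT the order was Sparc, Fn1 and Spp1 at 1624 ± 93.1, 1485 ± 576 and 1024 ± 456 CPM per kilobase, then Fbln2 at 834 ± 180, Postn at 765 ± 237, Tnc at 526 ± 197 and Mgp at 31.2 ± 28.3 (SD, n = 3 each). In Thbs2KO the library ranges of neighbours in this order overlapped down to Fbln2 and again between Tnc and Mgp, while every Tnc library lay below every Fbln2 library. In WT they overlapped down to Tnc, although Sparc, at 1558 to 1730.2, lay above Spp1, at 683.3 to 1543, in every library, and Mgp lay below Tnc in every library. At the low end Sparcl1 and Fbln1 had 25.6 ± 9.87 and 24.5 ± 10.04 CPM per kilobase in Thbs2KO, and 10.5 ± 10.95 and 15.1 ± 0.632 CPM per kilobase in WT, and their ranges overlapped in either group. In WT the Mgp libraries, at 6.39 to 61.98 CPM per kilobase, overlapped both. Tnxb had 0.325 ± 0.0292 CPM per kilobase in Thbs2KO and 0.426 ± 0.228 in WT.

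The way the libraries ranked was shared by most of the 10 genes. Thbs2KO replicate 3 was the highest Thbs2KO library for 9 of the 10, all but Tnc, and for 45.1% of all tested genes. WT replicate 1 was the highest WT library for 7 of the 10 (Fn1, Tnxb, Postn, Sparc, Spp1, Mgp and Fbln2) and for 42.1% of all tested genes. The 10 fibroblast markers also summed highest in Thbs2KO replicate 3, at 41085 CPM, against 31219 and 30116 CPM in Thbs2KO replicates 1 and 2, while in WT replicate 1 they were at 32646 CPM, between 33952 CPM in WT replicate 3 and 30662 CPM in WT replicate 2. Among them Dcn, which encodes decorin, was at 1004 CPM in Thbs2KO replicate 3, against 352.4 and 274.6 CPM in Thbs2KO replicates 1 and 2. Vim went the other way, at 1501 CPM in Thbs2KO replicate 3, against 2272 and 2401 CPM in Thbs2KO replicates 1 and 2. Col1a1 and Thy1 were nearly level over these 3 libraries. The part of this difference between libraries in the values of the 10 genes was not tested.

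**Figure D4:**
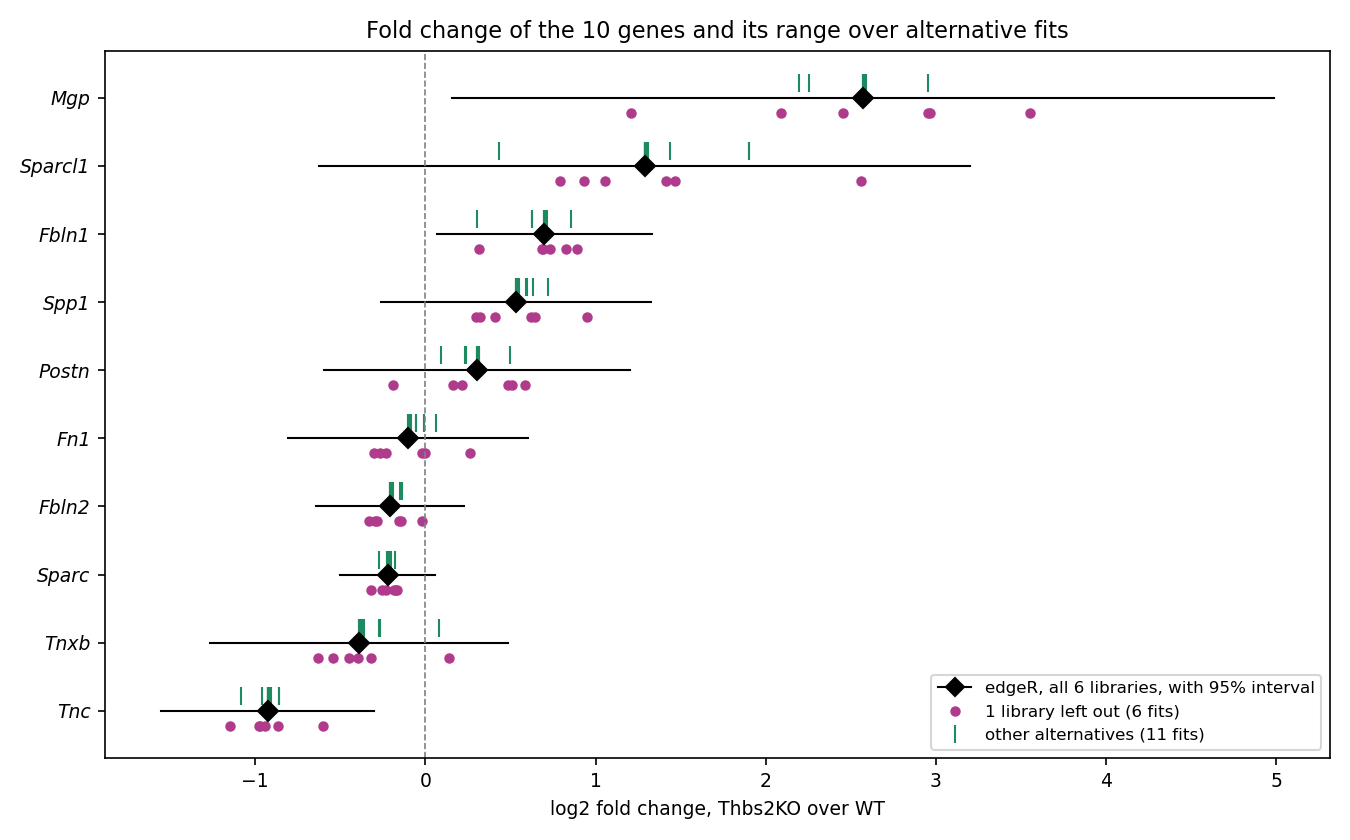
The log2 fold change of each of the 10 genes (x axis, Thbs2KO over WT) in edgeR with all 6 libraries (diamond, with its 95% interval), with 1 library left out (dots) and under the other alternatives (ticks). The values of Tnc stay between -1.15 and -0.60 and those of Mgp between 1.21 and 3.55, while Fn1, Tnxb and Postn take both signs.

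Other genes of these families, their receptors, the adaptors that join integrins to actin and the enzymes that modify these proteins were read from the same fit. By edgeR and by limma-voom 0 of them passed over all genes. Among 15 tested relatives of the 10 genes, 8 had a log2 fold change above 0 and 7 below, around a median of 0.041. At an unadjusted edgeR p under 0.05 stood 3 higher and 4 lower, against 5.72% and 7.56% of all genes. DESeq2 called Tgfbi higher and Npnt, which encodes the integrin ligand nephronectin, lower, against 5.14% of all genes called. Tgfbi, a fasciclin-domain relative of periostin, measured 88.1, 79.3 and 48.2 CPM in Thbs2KO replicates 1, 2 and 3, against 33.7, 19.8 and 22.97 CPM in WT replicates 1, 2 and 3 (log2 fold change 1.50 with an SE of 0.283, adjusted p = 0.0714 by edgeR). Its groups did not overlap, and it passed in DESeq2 (adjusted p = 1.43e-05). It also passed without WT replicate 1 (edgeR adjusted p = 0.0389, 2.89% of all genes called). Without Thbs2KO replicate 3 it passed as well (edgeR adjusted p = 0.0497, 110 of 13887 genes called). Tnr, the tenascin of the nervous system, was near the floor, at 0.793 ± 0.416 CPM in Thbs2KO and 0.187 ± 0.0688 CPM in WT (adjusted p = 0.148).

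Of 14 tested receptor genes 10 had a log2 fold change below 0, and the median was -0.28. An unadjusted edgeR p under 0.05 was found for 2 higher and 4 lower, against 5.72% and 7.56% of all genes. DESeq2 called Itga5 and Itga9 lower, against 5.14% of all genes called. Itga9, the alpha chain of a receptor for tenascin-C and osteopontin, was at 15.6 ± 1.42 CPM in Thbs2KO and 24.1 ± 3.61 CPM in WT (log2 fold change -0.63, edgeR, Benjamini-Hochberg adjusted p = 0.104). Itga5 was at 543.4, 599.8 and 430.5 CPM in Thbs2KO replicates 1, 2 and 3, against 592.7, 958.5 and 1169 CPM in WT replicates 1, 2 and 3, with WT replicate 1 within the Thbs2KO range. Its log2 fold change was -0.79 (edgeR, Benjamini-Hochberg adjusted p = 0.253), and without WT replicate 1 it was -1.02 and passed (adjusted p = 0.0409, 2.89% of all genes called).

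Of 16 adhesion adaptors and kinases 15 had a log2 fold change below 0, and the list's median was -0.27, whereas the median of all tested genes was -0.0038. For 8 of the 16 the 3 Thbs2KO libraries were all below the 3 WT libraries, as for 10.3% of all tested genes. An unadjusted edgeR p under 0.05 was found for 1 higher and 7 lower, against 5.72% and 7.56% of all genes. The DESeq2 calls were 1 higher (Tns2) and 4 lower (Tns1, Zyx, Parva and Vcl), against 5.14% of all genes called. Tns1, a tensin of the fibrillar adhesions along which fibronectin is drawn out, was at 223.1 ± 10.6 CPM in Thbs2KO and 431.8 ± 97.8 CPM in WT (log2 fold change -0.95 with an SE of 0.166, adjusted p = 0.062 by edgeR). It passed without WT replicate 1 (adjusted p = 0.0136), in DESeq2 (adjusted p = 2e-05) and with no filter on low counts (edgeR adjusted p = 0.0251). Zyx, which encodes the adhesion protein zyxin, was at 492.3 ± 8.08 CPM in Thbs2KO and 692.97 ± 63.8 CPM in WT (adjusted p = 0.0691 by edgeR). Without both WT replicate 1 and Thbs2KO replicate 3, 1 of the 16 was called higher and 14 lower, in the fit that called 11.2% of all genes. The 16 genes summed to between 4160 and 4253 CPM in Thbs2KO, against 4889, 5552 and 5613 CPM in WT replicates 1, 2 and 3. The sum of the 10 smooth muscle and pericyte markers was also highest in WT replicates 2 and 3, but in WT replicate 1, at 406.9 CPM, it was below all 3 Thbs2KO libraries. The part of those cells in these values was not tested.

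Of 13 tested modifying enzymes 7 had a log2 fold change above 0 and 6 below, around a median of 0.046. An unadjusted edgeR p under 0.05 was found for 0 higher and 1 lower, against 5.72% and 7.56% of all genes. DESeq2 called that gene, Bmp1, lower, against 5.14% of all genes called. Bmp1, the procollagen C-proteinase that also acts on matricellular proteins, was at 452.5 ± 10.9 CPM in Thbs2KO and 527.3 ± 13.3 CPM in WT (log2 fold change -0.22, edgeR, Benjamini-Hochberg adjusted p = 0.228). Mmp2, the gelatinase that can cleave fibronectin, was at 743.6, 698.1 and 1754 CPM in Thbs2KO replicates 1, 2 and 3, against 808.6, 340.3 and 393.2 CPM in WT replicates 1, 2 and 3, high like Postn in Thbs2KO replicate 3 and WT replicate 1 (adjusted p = 0.411). Unlike Postn, Mmp2 was called higher without both of these libraries (log2 fold change 0.98, adjusted p = 0.00159, 11.2% of all genes called). Ggcx and Vkorc1, which take part in the vitamin K-dependent carboxylation that Mgp needs, had log2 fold changes of 0.11 and 0.088 (adjusted p = 0.87 and 0.909).

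**Figure D5:**
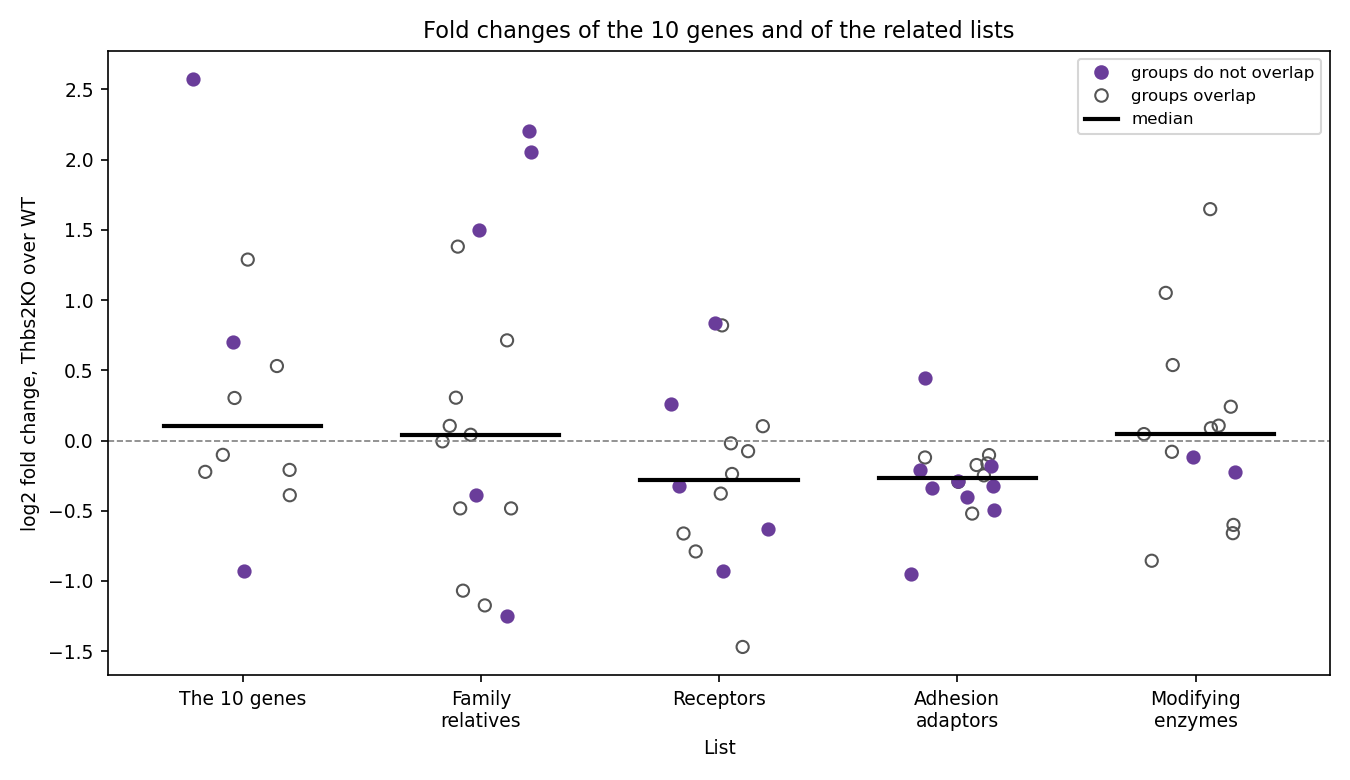
Log2 fold changes (y axis, Thbs2KO over WT) of the 10 genes and of the tested genes in the 4 related lists (x axis), filled where the groups do not overlap, with the median of each list as a bar. The 16 adhesion adaptors lie below 0 except for 1, while the other lists spread to both sides.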

How the data were processed

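RNA-seq of 3 Thbs2KO and 3 WT libraries was used. The authors deposited expected counts, reads per gene as estimated by RSEM, with library totals left unequal. Tools named by the submitters' processing notes are RSEM, STAR 2.7.3a and Trimmomatic 0.39, with the build mm10, per the labels, and the annotation release is not given in the sources used here. Per the labels' protocols, libraries came from a TruSeq v2 kit, which does not mark strand, so reads where a gene overlaps an antisense gene cannot be assigned. From 3.80% to 3.88% of the values were not whole, and all were rounded before testing. Genes passing filterByExpr were scaled with TMM and tested in edgeR 4.0.16 under R 4.3.3 by robust quasi-likelihood fits on genotype alone, and p-values received Benjamini-Hochberg adjustment over all tested genes and a threshold of 0.05. Every adjusted p is from that fit unless another is named. Standard errors and 95% intervals come from its F statistics. Members, lists and alternatives were chosen with earlier results of these data known. All members are named. Of each related list, called genes or otherwise the 2 with the smallest p were named. Dmp1, Ggcx, Vkorc1, Efemp1, Mfap4, single markers and genes called under an alternative were added after their values were seen. Genes like a member were the 3 with the smallest mean absolute difference in centred log2 CPM, for the 3 members of smallest p. Alternatives, set out with the same knowledge, were DESeq2 1.42.0, voom in limma 3.58.1, upper-quartile and RLE scaling, other filters, no robust estimation, a replicate block and libraries left out or summed. The edgeR step was tested on simulated counts. Gene positions and exon lengths come from GENCODE M21, on the build of mm10.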

Additional observations from a re-analysis of the deposited data

How the results depend on the processing

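Over 17 alternatives, 7 of the 10 genes kept the sign of their log2 fold change, namely Tnc, Sparc, Sparcl1, Spp1, Mgp, Fbln1 and Fbln2. With 1 library left out that of Fn1 ran from -0.30 to 0.26, that of Tnxb from -0.63 to 0.14 and that of Postn from -0.19 to 0.58. Without both WT replicate 1 and Thbs2KO replicate 3, Fn1 and Tnxb were at 0.062 and 0.078. The cause of these reversals was not tested. Of the 10 genes 0 were called with all libraries, 0 to 1 with 1 library left out, 1 by DESeq2 (Tnc in both cases) and 2 without both WT replicate 1 and Thbs2KO replicate 3 (Sparc and Spp1). The count of all genes called was 148, and 38 to 397 with 1 library left out. It was 699 by DESeq2, 245 with no filter, 86 over protein-coding genes only, 40 with Thbs2KO replicates 1 and 2 summed and 1519 without both WT replicate 1 and Thbs2KO replicate 3. The fit without these 2 libraries keeps the most alike pair of each group, so the choice of libraries makes its spread within groups small. The replicate block called 30 genes and 0 of the 10. Whether same-numbered libraries are pairs is not stated in the labels, although the deposited library names carry matching numbers in both groups. Deviations of same-numbered libraries from their group means correlated at -0.29, 0.17 and -0.33. With 3 libraries a group these values cannot settle whether the samples are paired. Under the replicate block Tnc had an edgeR adjusted p of 0.418. With 3 libraries a group, the intervals of Fn1, Postn and Spp1 remain wide although their counts are high. Those of Sparcl1 and Mgp are wide too. Their lowest counts were 124 in WT replicate 1 for Sparcl1 and 181 in WT replicate 3 for Mgp. Their WT libraries ran from 5.34 to 66.99 CPM for Sparcl1 and from 7.59 to 73.6 CPM for Mgp. What sets the width of these intervals was not tested.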

Other observations

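Efemp1, which encodes fibulin-3 and was picked here after its values were seen, differed more within WT than between the groups. It measured 104.3, 106.6 and 206.2 CPM in Thbs2KO replicates 1, 2 and 3, against 762 CPM in WT replicate 1 and 39.5 and 73.5 CPM in WT replicates 2 and 3. Sparcl1 ran the other way among the same WT libraries, with its lowest value, 5.34 CPM, in WT replicate 1. Mfap4, a microfibril-associated fibrinogen-domain protein also picked after its values were seen, was at 115.3 CPM in Thbs2KO replicate 3, against 24.5 and 32.98 CPM in Thbs2KO replicates 1 and 2, and between 16.9 and 25.7 CPM in the WT libraries.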
